A study of Mus musculus with 20 samples.

Results

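The Srsf splicing factors are the serine- and arginine-rich proteins that help the cell choose which exons stay in a messenger RNA. The family is taken here as 10 named genes, Srsf1, Srsf2, Srsf3, Srsf4, Srsf5, Srsf6, Srsf7, Srsf9, Srsf10 and Srsf11, with every array probe that carries 1 of these names. That is 10 of the 31044 genes and 20 of the 39429 non-control probes on the arrays. The members were chosen on these arrays' own log2 levels in the 4 groups, so those levels are a description, with no p-value. Where the fit over all features calls a member's probe, the call is only counted, beside the share of all probes called, and nothing is read from it.

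RNA from the whole blood of male mice, 8 to 10 weeks old, was read on 1-colour Agilent arrays. They are listed as 20 mice, with 1 mouse per array and 5 mice in each of 4 groups. The mice labelled WT had a C57BL/6 background, and the mice labelled Il10-/- carried the strain B6.129P2-Il10tm1Cgn/J, in which the gene of the cytokine interleukin-10 is disrupted; both were littermates bred from heterozygous parents. In each genotype 1 group had 7 Gy of X-rays over the whole body and 1 group was handled in the same way with 0 Gy, and all blood was drawn by cardiac puncture 24 h later into tubes that stabilise RNA, followed by removal of globin messages. The comparisons ask how the blood transcriptome responds to radiation and whether loss of interleukin-10 alters that response. The disruption that the label names is carried from conception on, so that a lasting state of those animals and the momentary lack of the cytokine cannot be told apart.

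SR proteins bind short sequences in exons through RNA recognition motifs and draw the splicing machinery to nearby splice sites through a tail rich in arginine and serine. Kinases of the SRPK and CLK families phosphorylate that tail and so set where the proteins sit in the cell and how active they are. Several family members limit their own messages by splicing them into forms that nonsense-mediated decay removes, and in blood the family is known from work on lymphocytes and from mutations of SRSF2 in myelodysplastic disease.

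A level below is the log2 of the background-corrected intensity of a probe, after 1 constant per array had been subtracted so that arrays could be compared. Probes differ in how well they bind, so levels are compared between arrays for 1 probe and not between genes. The probe for Il10 was bright in the mice labelled Il10-/-, with means of 6.26 at 0 Gy and 6.37 at 7 Gy (SD 0.25 and 0.54, n = 5 each), and near background in the mice labelled WT, with means of 2.26 and 1.86 (SD 0.89 and 0.54, n = 5 each). Where that probe lies relative to the disrupted part of the gene is not established, so it checks no label, and every direction between genotypes rests on the labels. Marker genes of blood were present: on the WT arrays at 0 Gy the lists for T cells, B cells, neutrophils, platelets and erythroid cells had mean levels of 9.17, 8.95, 11.53, 12.57 and 11.15.

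A pair of WT arrays at 0 Gy stood apart from the other 3 of their group. On replicates 4 and 5 of the WT group at 0 Gy, 38.5% and 29.9% of spots were well above background, beside 47.2% to 54.7% on the other WT arrays at 0 Gy. The SD of repeated spots was 0.126 and 0.379 on those 2 arrays and at most 0.0998 on the other 3. Among the irradiated Il10-/- arrays, replicates 3, 4 and 5 also had fewer spots well above background, 34.6%, 39% and 41%, but with an SD of repeated spots of at most 0.109. For the members' differences between the doses in WT, values without both weak WT arrays are therefore added. The irradiated Il10-/- arrays with fewer such spots were not left out together. Replicates 1 and 2 were the most alike pair in every group, with a robust SD of their difference of 0.209 to 0.313, beside 0.355 to 1.26 in the 36 other pairs, although they are listed as separate mice. Whether they come from 1 blood sample was not tested. If they do, each group holds fewer than 5 separate mice, and the SEs given below could be too small.

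All 10 genes had a probe, and of the 20 probes 16 passed the filter on background, which removed a probe when at least 25% of the arrays carried a mark for an outlier or for a signal near background. A further filter kept probes at least 1.5-fold from their median on at least 20% of the arrays, and 10 of the 16 passed it too. The 4 probes near background were those of Srsf1 at position 203, Srsf3 at position 2460, and Srsf10 at positions 931 and 2917, where a position is the number of bases from the start of the transcript to the probe. For 6 of the 10 genes the brightest probe did not pass the 1.5-fold filter, so its differences were fitted but it was not among the 16556 features tested.

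The probes show what part of the family each measurement reads. In 3 of the 20 probes a script found the letters CGNTCN or TCNCGN, where N is any base, CGN spells arginine and TCN spells serine, so that these are the letters of the arginine and serine repeats for which the family is named. Among all 39429 probes, 2976 or 7.55% held such letters, searched on the probe's strand without regard to reading frame. The 3 probes are shown because they hold these letters, though whether they read the repeats themselves was not tested, and capitals mark the matches, which overlap within each probe. Srsf2 is an early-acting SR protein that stays in the nucleus, Srsf5 belongs to the branch of the family with a second, degenerate recognition motif, and Srsf11 is a more distant relative that binds near U2AF at splice sites. The sequences come from the array files, which place them in mm9 at chr11:116713385-116713444 on the minus strand, chr12:82050878-82050937 on the plus strand and chr3:157675744-157675803 on the minus strand.
Srsf2 probe at position 728: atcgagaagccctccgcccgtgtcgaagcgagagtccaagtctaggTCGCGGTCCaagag
Srsf5 probe at position 1036: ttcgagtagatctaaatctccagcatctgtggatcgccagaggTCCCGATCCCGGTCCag
Srsf11 probe at position 1176: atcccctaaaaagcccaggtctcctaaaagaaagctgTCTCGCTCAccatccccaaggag

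**Figure D1:**
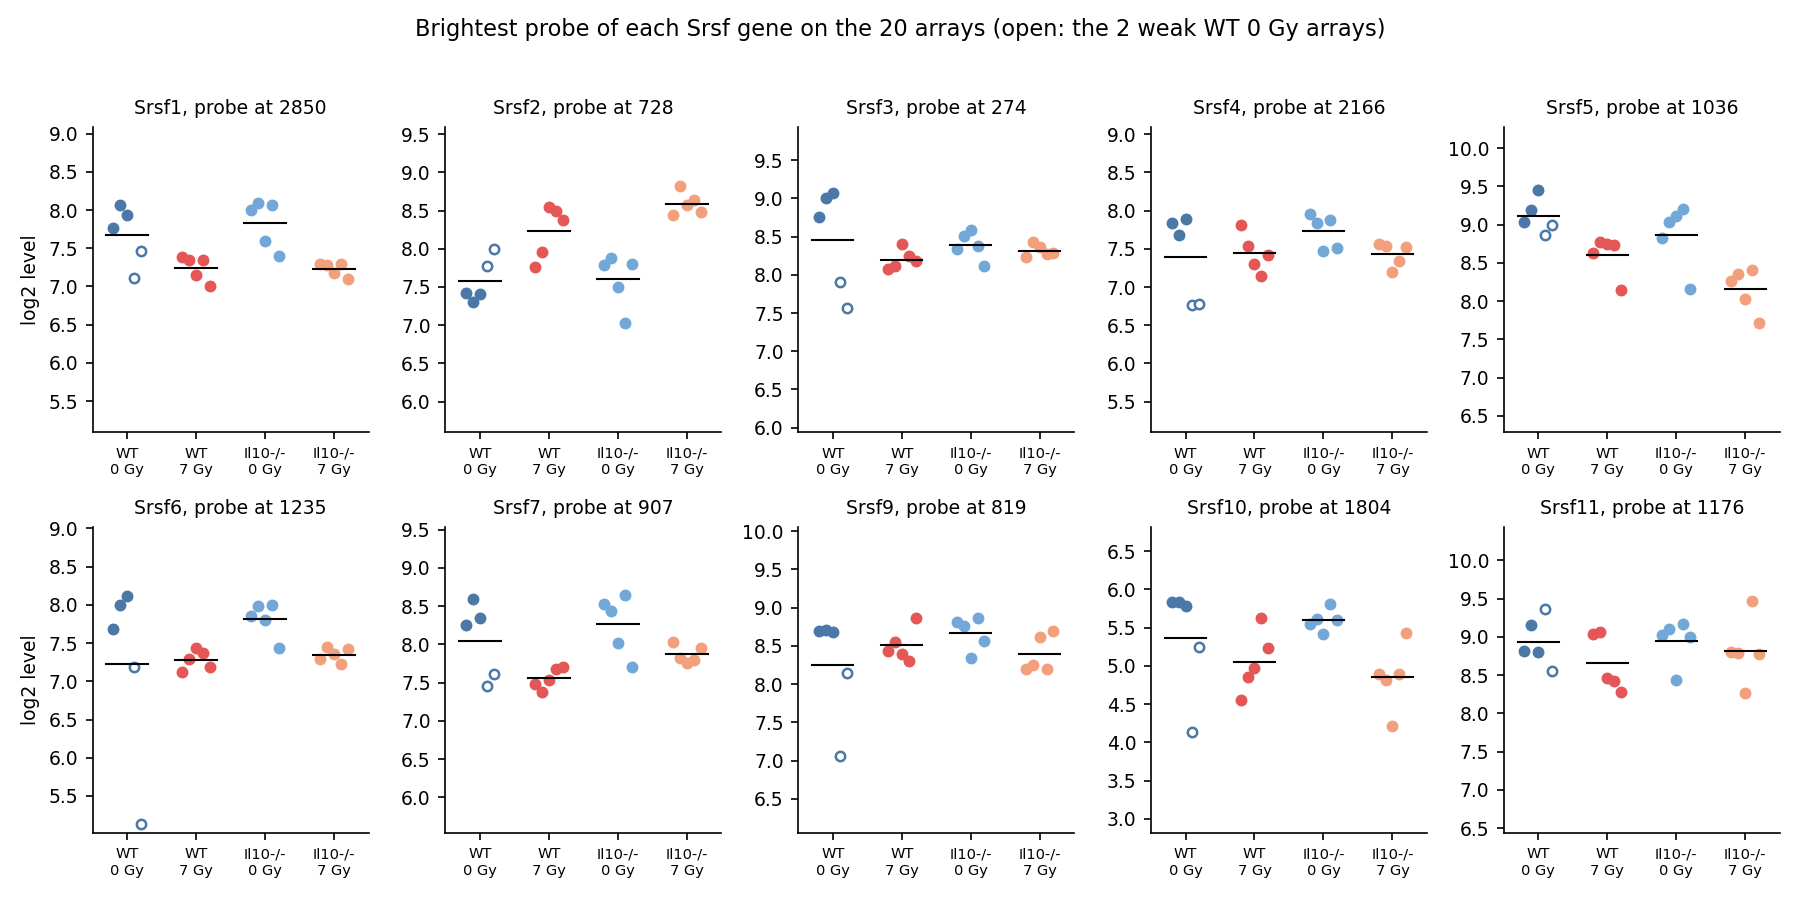
Log2 level of the brightest probe of each Srsf gene (vertical axis) on the 20 arrays, by group (horizontal axis), with a bar at the mean of 5 arrays and open circles for WT 0 Gy replicates 4 and 5. The Srsf2 probe lies between 8.44 and 8.82 on the irradiated Il10-/- arrays and between 7.03 and 7.88 on the unirradiated ones, while the open circles lie below the other 3 WT 0 Gy arrays for every gene but Srsf2 and Srsf11.

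Srsf1 is the prototype SR protein, which promotes exon inclusion, moves between nucleus and cytoplasm and also acts on mRNA stability and translation. Its probe at position 5399 had log2 levels of 6.56, 6.44, 6.49, 6.41 and 6.41 on WT replicates 1 to 5 at 0 Gy, and 5.07, 5.01, 5.04, 5.02 and 5.30 at 7 Gy. Each of the 5 irradiated WT arrays was below each of the 5 controls, and the 2 weak control arrays stood with the other 3. In the mice labelled Il10-/- the same probe was at 6.29, 6.17, 5.60, 6.23 and 5.92 at 0 Gy, and at 5.12, 5.13, 4.39, 4.69 and 4.70 at 7 Gy. Replicate 3 was the lowest of its group both times, and the groups again did not overlap. The mean difference was -1.38 (SE 0.17) in WT and -1.24 (SE 0.20) in Il10-/- mice, which leaves 38.6% and 42.4% of the control intensity, and it was below 0 under all scalings tried, from -1.51 to -0.48 and from -1.38 to -0.43. The probe was well above background on all 5 irradiated WT arrays but on 2 of the 5 irradiated Il10-/- arrays, so the Il10-/- percentage rests in part on signal near background. Without the 2 weak control arrays the WT difference was -1.41. A neighbouring probe at position 5317 differed by -1.45 (SE 0.24), or -1.63 without the 2 weak arrays, and by -1.18 (SE 0.20), with 3 of the 5 irradiated Il10-/- arrays well above background.

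The brightest Srsf1 probe, at position 2850, was at 7.76, 8.07, 7.94, 7.11 and 7.47 on the WT controls and at 7.38, 7.34, 7.15, 7.35 and 7.01 on the irradiated WT arrays. The groups overlapped because control replicate 4 was low. The Il10-/- levels were 8.0, 8.09, 7.59, 8.06 and 7.40 at 0 Gy and 7.29, 7.28, 7.17, 7.29 and 7.10 at 7 Gy, with no overlap. The mean differences were -0.43 (SE 0.23) and -0.60 (SE 0.17), smaller in size than at the late probes except under normexp background correction in Il10-/- mice, where the early probe was at -0.69 and the late one at -0.43, and the WT one turned to 0.12 under normexp. Without the 2 weak arrays the WT difference at this probe was -0.68.

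The Srsf1 probe at position 203 belongs to a noncoding transcript named after the gene, and its last 42 bases are the first 42 bases of the promoter window of Srsf1. It is shown because it reads the strand upstream of the gene's start, with the shared bases in capitals; it lies in mm9 at chr11:87860607-87860666 on the plus strand. Only 1 array of 20 had it well above background, so it stood at the limit of the assay.
Srsf1 probe at position 203: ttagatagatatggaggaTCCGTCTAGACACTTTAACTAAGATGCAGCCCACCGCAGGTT

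Srsf6 belongs to the same branch as Srsf4 and Srsf5 and promotes the use of weak exons. Its late probe, at position 3179, was at 6.30, 6.23, 6.57, 6.61 and 6.08 on the WT controls and at 5.29, 5.33, 5.03, 4.98 and 4.85 on the irradiated WT arrays. All irradiated arrays were below all controls. The Il10-/- arrays gave 6.39, 6.44, 6.10, 6.21 and 6.58 at 0 Gy and 4.95, 5.00, 4.47, 4.61 and 5.17 at 7 Gy. The groups did not overlap there either, and the 5 differences between arrays of the same slide ran from -1.63 to -1.41. The mean difference was -1.26 (SE 0.20) in WT and -1.51 (SE 0.17) in Il10-/- mice, or 41.7% and 35.2% of the control intensity, and it was below 0 under all scalings tried, the one nearest to 0 being -0.42 in WT and -0.55 in Il10-/- mice. Here 3 of the 5 irradiated Il10-/- arrays were well above background and all 5 irradiated WT arrays, and the WT difference without the 2 weak arrays was -1.27.

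The early Srsf6 probe, at position 1235, was at 7.68, 8.0, 8.12, 7.19 and 5.14 on the WT controls and at 7.12, 7.29, 7.44, 7.37 and 7.19 at 7 Gy. Control replicate 5, a weak array, was far below the other 4, and the mean difference of 0.06 (SE 0.49) in WT rests on it: without replicate 5 it was -0.47 and without the 2 weak arrays -0.65, and over the scalings it ran from -0.08 to 0.29. The Il10-/- levels were 7.86, 7.99, 7.80, 8.0 and 7.44 at 0 Gy and 7.29, 7.45, 7.36, 7.23 and 7.42 at 7 Gy. The groups overlapped by 1 irradiated array, and the mean difference was -0.47 (SE 0.15), below 0 under all scalings tried.

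Srsf2, whose early probe is shown above, had that probe called higher in Il10-/- mice, where 4.07% of all probes above background were. The call was kept in 7 of 21 alternatives. In WT the probe was not called, where 4.83% of all such probes were called higher. The interaction of genotype and dose at this probe was 0.34 (SE 0.29) and was not called. That probe, at position 728, was at 7.42, 7.30, 7.41, 7.77 and 8.0 on the WT controls and at 7.76, 7.96, 8.54, 8.50 and 8.38 at 7 Gy. The groups overlapped through the weak control arrays, although on each of the 5 slides the irradiated array was the higher one. The Il10-/- arrays were at 7.79, 7.88, 7.5, 7.03 and 7.80 at 0 Gy and at 8.44, 8.82, 8.57, 8.64 and 8.48 at 7 Gy, with every irradiated array above every control. The mean difference was 0.65 (SE 0.24) in WT and 0.99 (SE 0.19) in Il10-/- mice, or 157% and 199% of the control intensity, and it was above 0 under all scalings tried, from 0.40 to 0.74 and from 0.27 to 0.99. Without the 2 weak arrays the WT difference was 0.85.

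The late Srsf2 probe, at position 1060, did not follow the early one. It was at 5.41, 5.47, 5.55, 3.43 and 4.32 on the WT controls and at 5.03, 5.10, 5.33, 4.66 and 5.19 at 7 Gy. The mean difference in WT was 0.23 (SE 0.40), but -0.13 without control replicate 4 and -0.42 without the 2 weak control arrays, which were the lowest of their group, and -0.17 under normexp background correction. Its Il10-/- levels were 5.42, 5.50, 5.36, 5.68 and 4.78 at 0 Gy and 4.76, 4.81, 4.3, 3.90 and 4.76 at 7 Gy. The irradiated array was lower on each of the 5 slides, the groups overlapped by control replicate 5, and the mean difference was -0.84 (SE 0.23), below 0 under all scalings tried, with 2 of the 5 irradiated arrays well above background. Over the scalings this difference ran from -0.99 to -0.19.

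**Figure D2:**
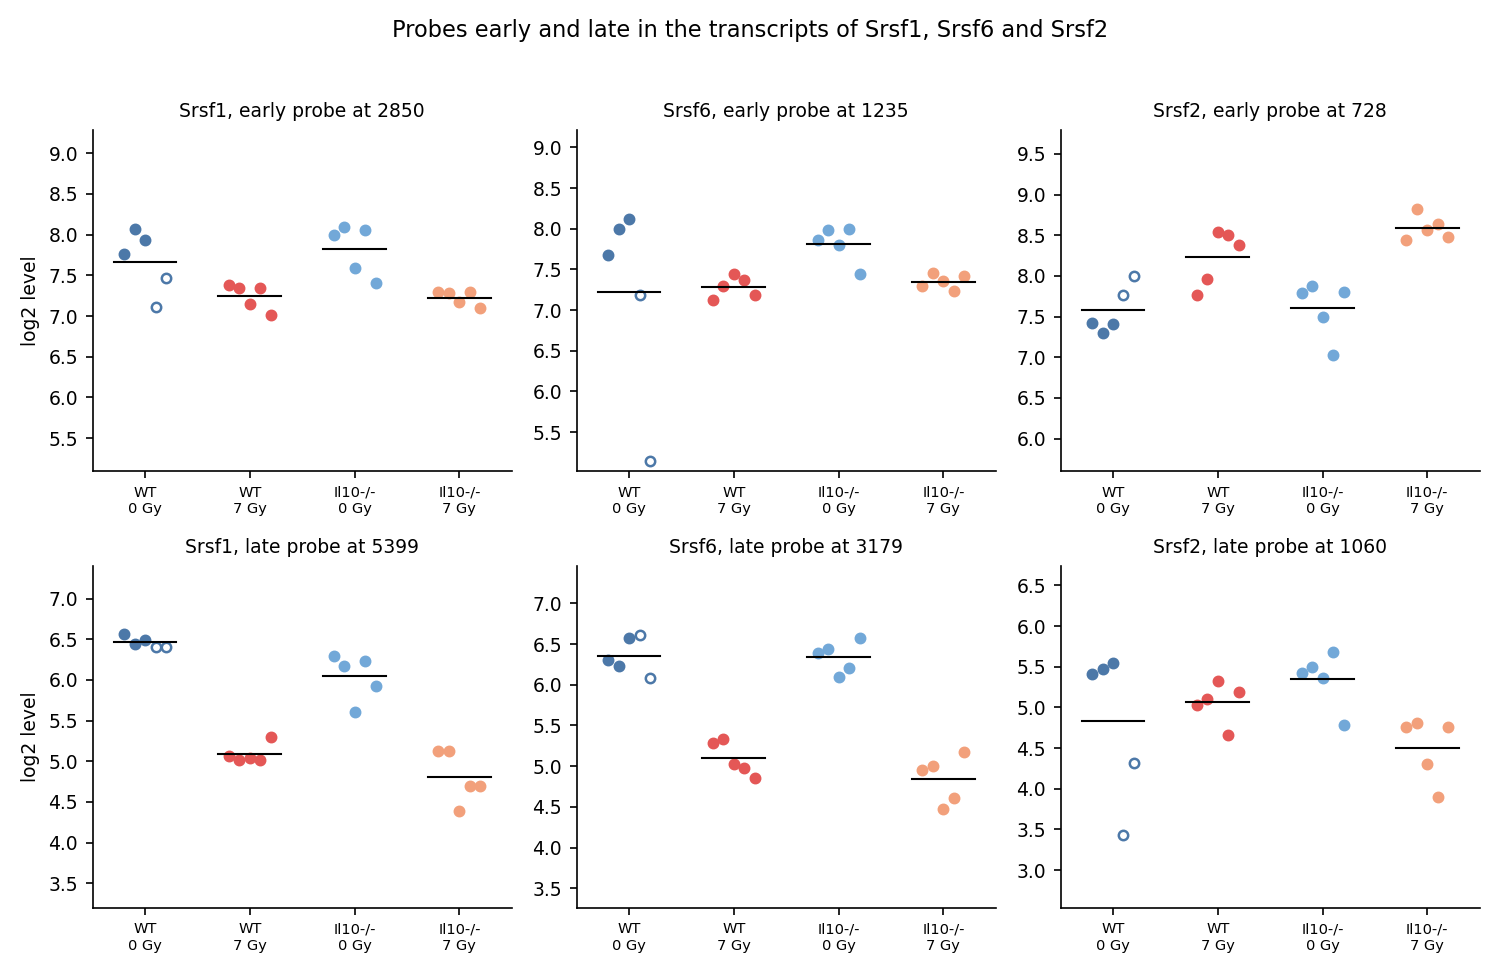
Log2 level (vertical axis) of an early and a late probe in the transcripts of Srsf1, Srsf6 and Srsf2 on the 20 arrays, by group (horizontal axis), with a bar at the mean of 5 arrays and open circles for WT 0 Gy replicates 4 and 5. At the late Srsf1 and Srsf6 probes both irradiated groups lie below their controls, by -1.38 and -1.24 and by -1.26 and -1.51, below 0 under all scalings tried, while the Srsf2 probes differ in direction in Il10-/- mice.

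Where a gene has probes at least 300 bases apart, the distance between the early and the late level on 1 array needs no constant between arrays. For Srsf1 the late level minus the early one had a mean of -1.21 on the WT controls and -2.16 on the irradiated WT arrays (SD 0.36 and 0.26, n = 5 each), and of -1.78 and -2.42 in Il10-/- mice (SD 0.20 and 0.27, n = 5 each). For Srsf6 it was -0.87 and -2.19 in WT (SD 1.11 and 0.27) and -1.47 and -2.51 in Il10-/- mice (SD 0.36 and 0.25). The WT shift of -1.32 for Srsf6 rests in part on the weak arrays and was -0.62 without them, and that of -0.95 for Srsf1 was -0.73. The controls and the irradiated arrays did not overlap in either genotype for these 2 genes. For Srsf2 the gap was -2.74 and -3.16 in WT, with overlap, a shift of -0.42 that was -1.27 without the weak arrays, and -2.25 and -4.08 in Il10-/- mice, without. In all 5 genes with such probes, Srsf1, Srsf2, Srsf3, Srsf6 and Srsf7, the late probe was lower against the early one after 7 Gy in both genotypes, except that quantile normalization left 3 of 5 in WT and normexp background correction left 2 of 5 in Il10-/- mice, where Srsf1 was among those that turned. The shifts of Srsf3 and Srsf7 were smaller: -0.09 in WT, with overlap, and -0.31 in Il10-/- mice, without, for Srsf3, and -0.30 in WT and -0.05 in Il10-/- mice, both with overlap, for Srsf7. For Srsf7 in Il10-/- mice the late probe was lower on 2 of 5 slides, and it was above the early one without control replicate 3, at -0.32 and -0.46, and, by 0.02 or less, without replicate 1 or 5 at 7 Gy. The median over the 5 was -0.42 in WT, or -0.62 without the weak arrays, -0.60 under normexp and -0.06 with quantile normalization, and -0.64 in Il10-/- mice, or -0.58 with quantile normalization and 0.06 under normexp. Over 1991 probe pairs of all genes the late probe was lower in 50.6% in WT, with a median of -0.01, and in 61.6% in Il10-/- mice, with a median of -0.13. How many of these pairs were without overlap between the doses was not counted, so nothing is read from the lack of overlap in the members.

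The probes of Srsf1 2549 bases apart in the transcript were 2549 bases apart in the mm9 genome as well, and the same held for Srsf6, at 1944 bases, and Srsf7, at 436 bases, so that no intron separates them. The Srsf2 probes, 332 bases apart in the transcript, were 1391 bases apart in the genome, and the Srsf3 probes 478 and 5152 bases, so introns lie between those. The late probes also had fewer G and C bases in 4 of the 5 genes, as for Srsf1, with 45% in the early and 31.7% in the late probe, and Srsf2, with 61.7% and 28.3%, but not for Srsf7, with 35% and 41.7%. The late probes of Srsf1 and Srsf6 were dim, at mean levels of 5.60 and 5.66 over the 20 arrays. Of the 4 members' probes at levels of 5 to 6, 3 differed by less than -1 in each genotype, beside 7.89% in WT and 6.91% in Il10-/- mice of the 3142 probes at those levels. Whether message length, base content or signal strength has a part in the lower late probes was not tested.

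Srsf3 is the smallest SR protein and, with Srsf7, an adapter for mRNA export. Its early probe, at position 274, was at 8.76, 9.0, 9.07, 7.91 and 7.56 on the WT controls and lay between 8.07 and 8.40 at 7 Gy. The 3 sound controls were above all irradiated arrays and the 2 weak ones below them, so the WT difference was -0.26 with the weak arrays and -0.74 without, and 0.36 under normexp background correction. The Il10-/- difference was -0.07 (SE 0.14), with overlap, and ran from -0.38 to -0.07 over the scalings. The probe at position 752 gave -0.35 (SE 0.33) and -0.38 (SE 0.15), with the WT value at 0.08 under normexp background correction and -0.88 without the weak arrays.

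Srsf7 carries a zinc knuckle beside its recognition motif. Its brightest probe, at position 907, was at 8.25, 8.59, 8.34, 7.46 and 7.61 on the WT controls and lay between 7.37 and 7.70 at 7 Gy, and the overlap came from the 2 weak arrays. The differences were -0.50 (SE 0.25) in WT, or -0.84 without the weak arrays and 0.11 under normexp background correction, and -0.40 (SE 0.19) in Il10-/- mice. At the late probe, position 1343, they were -0.80 (SE 0.27), or -1.04 without the weak arrays, and -0.45 (SE 0.31), below 0 under all scalings tried, with 3 and 2 of the 5 irradiated arrays well above background. Over the scalings they ran from -0.94 to -0.29 in WT and from -0.60 to -0.14 in Il10-/- mice. With 1 array left out the Il10-/- difference ran from -0.76 to -0.32.

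Srsf5, whose probe is shown above, was at 9.04, 9.19, 9.45, 8.87 and 9.0 on the WT controls and at 8.63, 8.77, 8.75, 8.74 and 8.15 at 7 Gy. Every irradiated WT array was below every control, the lowest being replicate 5. In Il10-/- mice it was at 8.82, 9.03, 9.11, 9.20 and 8.16 at 0 Gy and at 8.26, 8.36, 8.03, 8.41 and 7.71 at 7 Gy, where control replicate 5 made the groups overlap. The differences were -0.50 (SE 0.21) and -0.71 (SE 0.23), and normexp background correction turned the WT one to 0.08, while without the weak arrays it was -0.62.

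Srsf10, a family member that represses splicing when it is dephosphorylated, for example after heat shock, was read by 1 probe above background, at position 1804. Its WT controls were at 5.84, 5.83, 5.78, 4.14 and 5.25, and the irradiated WT arrays lay between 4.55 and 5.63, so that the 3 sound controls were above all of them. The WT difference was -0.32 (SE 0.36), or -0.77 without the weak arrays, and the difference in Il10-/- mice was -0.75 (SE 0.21), with the irradiated array lower on each of the 5 slides. Both were below 0 under all scalings tried, from -0.46 to -0.20 in WT and from -0.89 to -0.34 in Il10-/- mice. The probe at position 931 is placed on chromosome 19 of mm9 while the other Srsf10 probes are placed on chromosome 4, and it was well above background on 0 arrays.

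Srsf4, Srsf9 and Srsf11 were each read by 1 probe. Srsf4, a close relative of Srsf6 with a long tail, differed by 0.05 (SE 0.29) in WT, from -0.13 to 0.22 over the scalings and -0.36 without the weak arrays, and by -0.29 (SE 0.15) in Il10-/- mice. Srsf9, which acts much like Srsf1 but with a short tail, differed by 0.25 (SE 0.33) in WT, from -0.05 to 0.44 over the scalings and -0.19 without the weak arrays, and by -0.27 (SE 0.17) in Il10-/- mice. Srsf11, whose probe is shown above, differed by -0.28 (SE 0.25) in WT, or 0.52 under normexp background correction and -0.27 without the weak arrays, and by -0.12 (SE 0.23) in Il10-/- mice. Over the scalings the Il10-/- differences ran from -0.51 to -0.29 for Srsf4, from -0.58 to -0.27 for Srsf9 and from -0.55 to -0.12 for Srsf11. In each of these 6 comparisons the irradiated and control arrays overlapped. Leaving out 1 array turned 3 of them: Srsf4 in WT to -0.10 without replicate 4 or 5 at 0 Gy and to -0.04 without replicate 1 at 7 Gy, Srsf9 in WT to -0.05 without replicate 4 at 0 Gy, and Srsf11 in Il10-/- mice to 0.02 without replicate 3 at 7 Gy.

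Over the brightest probes of all 10 genes the median difference was -0.27 in WT, beside -0.05 over 18812 genes, and -0.35 in Il10-/- mice, beside 0.04. The WT median was -0.18 to -0.46 under the other scalings and in the deposited table, which holds 4 of the 10 genes, but turned to 0.25 under normexp background correction, and it was -0.64 without the 2 weak arrays. The median in Il10-/- mice was below 0 under every scaling, from -0.56 to -0.35. The scalings also shift the median of all probes: in WT it was -0.04 with the scaling used and -0.17 at the 75th percentile, and in Il10-/- mice it was 0.03 with the scaling used, -0.11 with array medians, -0.08 at the 75th percentile, -0.15 with quantile normalization, -0.10 with normexp and 0.19 in the deposited table. Relative to that median the members stood at -0.23 in WT, or 0.26 under normexp, and at -0.38 in Il10-/- mice, or -0.30 with quantile normalization. In blood, fewer cells of a type that is rich in a message and less of that message per cell cannot be told apart.

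A probe was called when limma gave an unadjusted p below 0.001 and a false discovery rate under 10% over the 16556 features. In WT, 1832 features or 11.1% were called, 1114 higher and 718 lower. Of the 16 members' probes 3 were called lower, Srsf1 at 5317 and 5399 and Srsf6 at 3179, where 3.12% of all 23045 probes above background were called lower. No member was called higher, where 4.83% of all such probes were. The irradiated arrays were below the controls without overlap at 4 of the 16 probes, where 7.18% of all probes were, and above them at 0, where 12% were. Of the 16 probes 11 had a difference below 0, or 13 at the 75th percentile and with quantile normalization and 6 under normexp background correction and 15 without the weak arrays, and the differences ran from -1.45 to 0.65. The calls of the members were 0 with array medians, at differences of -1.37 and -1.29 for Srsf1 at 5317 and 5399 and -1.17 for Srsf6 at 3179. Under normexp background correction 0 were called. There Srsf1 at 5317 and 5399 and Srsf6 at 3179 were not among the features tested, so they could not be called. The calls were 2 with quantile normalization, and 1, Srsf1 at 5399, when replicates 1 and 2 were averaged into 1 value. With the slide as a block, each slide holding 1 array of every group, Srsf1 at 5317 and Srsf6 at 3179 also lost the call, and only Srsf1 at 5399 kept it. Leaving out 1 array took the call from Srsf6 at 3179 without WT replicate 3 at 0 Gy, at a difference of -1.21, and without WT replicate 4 at 7 Gy, at -1.23, and left the Srsf1 calls as they were. The count over all features was 1176 to 1756 with 1 array left out, lowest without WT replicate 2 at 7 Gy and next lowest, at 1198, without replicate 1. The higher and lower calls over all features also moved with the scaling, from 1114 and 718 to 794 and 761 at the 75th percentile, 706 and 694 with quantile normalization, 323 and 20 with normexp, and 905 and 991 without the 2 weak arrays.

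Radiation in Il10-/- mice gave 1862 called features or 11.2%, 939 higher and 923 lower. The same 3 late probes of Srsf1 and Srsf6 were called lower, where 4.01% of all probes above background were, and Srsf2 at 728 was called higher, where 4.07% were. The arrays did not overlap, on the lower side, at 4 of the 16 probes, where 9.92% of all probes did not, and on the higher side at 1, where 9.13% did not. Of the 16 probes 15 had a difference below 0 under every scaling, the exception being Srsf2 at 728, and the differences ran from -1.51 to 0.99. The call of Srsf2 was lost with array medians, at the 75th percentile and with quantile normalization. It was also lost when 1 array was left out, namely Il10-/- replicate 1, 3 or 4 at 0 Gy, at differences of 1.04, 0.97 and 0.85, or any 1 of the 5 at 7 Gy, at 1.03, 0.93, 1.0, 0.98 and 1.02. The calls of Srsf1 and Srsf6 were kept when any 1 array was left out. Under normexp no member was called, but there Srsf1 at 5317 and 5399 and Srsf6 at 3179 were not among the features tested and could not be called. Srsf1 at 5399 and Srsf6 at 3179 were called in all 20 of the 21 alternatives that tested them. Srsf1 at 5317 was called in 19 of 20, and Srsf2 at 728 was also tested in 20. With the slide as a block 3 of the 4 calls were kept, without Srsf2, and with replicates 1 and 2 averaged 2 were kept, Srsf1 at 5399 and Srsf6 at 3179. Over all features the higher and lower calls moved from 939 and 923 to 612 and 1090 with array medians, 643 and 1068 at the 75th percentile and 676 and 998 with quantile normalization, and under normexp 1 feature was called.

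**Figure D3:**
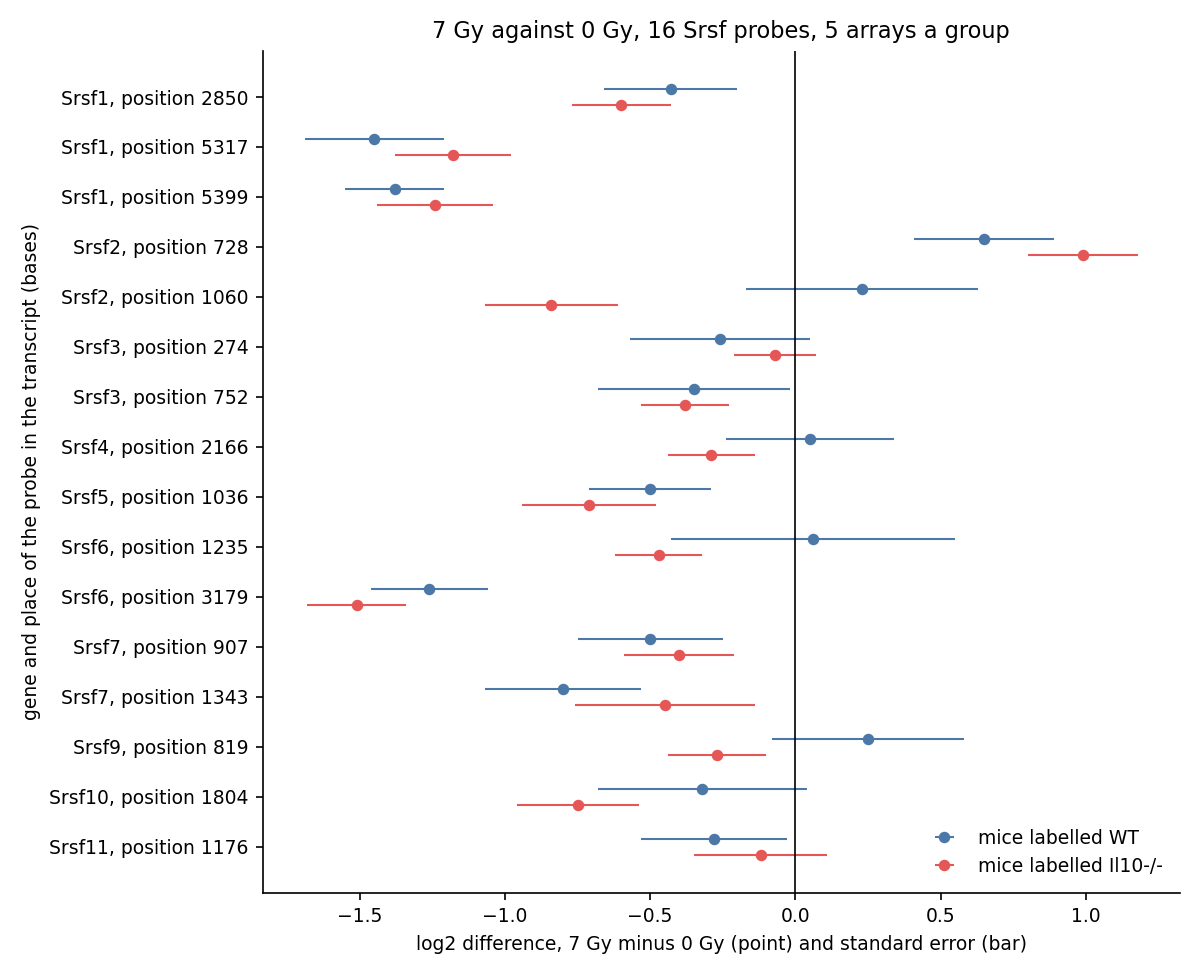
Log2 difference of 7 Gy minus 0 Gy (horizontal axis; points, with the standard error as bars) at the 16 Srsf probes above background, each named by gene and position in the transcript (vertical axis), for mice labelled WT and Il10-/-. The late Srsf1 and Srsf6 probes lie between -1.51 and -1.18 in both genotypes, below 0 under all scalings tried, and the Srsf2 probe at 728 lies at 0.65 and 0.99, above 0 under all scalings tried; under normexp 6 of the 16 WT probes instead of 11 are below 0.

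The 2 responses were compared by the interaction of genotype and dose. limma called 0 of the 16556 features, with 1251 at an unadjusted p below 0.05, and so 0 of the members' probes, where 0% of all probes were called. The largest of the members' interactions in size was -1.07 (SE 0.48), at Srsf2 position 1060, and it was -0.43 without the 2 weak WT arrays. The values of the 2 genotypes are therefore given side by side and are not shown to differ.

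Before radiation, Il10-/- was compared with WT at 0 Gy. Over all features 82 or 0.495% were called, 76 higher and 6 lower, and 0 of the members' probes, where 0.356% of all probes above background were called. The differences of the 16 probes ran from -0.45 to 0.59, with a median of 0.02. Over the brightest probes of the 10 genes they ran from -0.25 to 0.59, with a median of 0.19, beside 0.09 over all genes, but -0.11 without the 2 weak WT arrays. Over the scalings it was 0.03 with quantile normalization, 0.12 at the 75th percentile, 0.42 under normexp and 0.47 with array medians. The median of all probes was 0.10 there and shifted to 0.38 with array medians and to -0.04 in the deposited table. The late Srsf1 probe at 5399 was the only one whose groups did not overlap, where 1.33% of all probes were lower without overlap. Its highest Il10-/- control, at 6.29, was below its lowest WT control, at 6.41, with a mean difference of -0.42 (SE 0.20) that was -0.14 with array medians and -0.46 without the 2 weak arrays. The count of 82 was 14 to 91 with 1 array left out: 49, 24, 27 and 15 without WT replicates 1 to 4, and 14, 19 and 19 without Il10-/- replicates 1, 2 and 5.

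The members varied together on part of the arrays. The mean of the 10 brightest probes, each centred on its own mean, was 0.22, 0.37, 0.36, -0.42 and -0.44 on the WT controls, so that the 2 weak arrays were the lowest of all 20. The irradiated WT arrays lay between -0.16 and -0.05, the Il10-/- controls between -0.06 and 0.34, and the irradiated Il10-/- arrays between -0.23 and -0.03. Over the 20 arrays, which include the difference between doses and the weak arrays, the 45 pairs of members had a median Pearson r of 0.40, with 33 pairs above 0. The most alike pair was Srsf1 with Srsf7, at 0.86, followed by Srsf3 with Srsf6, at 0.80. The least alike was Srsf1 with Srsf2, at -0.75, followed by Srsf2 with Srsf5, at -0.74. Outside the family, 5 of 18758 genes had the levels over the 20 arrays most like the members' mean. They were an unnamed transcript, ENSMUST00000195568, and Zbtb18, each at an r of 0.94, and Rnf2, Trim27 and Rcc2, each at 0.93. Their r within groups was 0.95, 0.94, 0.94, 0.92 and 0.95. It still includes the 2 weak arrays, which were far below the other WT controls in the members' mean.

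The genes that work with the family were taken as 6 lists of splicing genes, 129 genes in all, of which 124 had a probe above background. Of these 124, 39 were among the features tested and so could be called. In WT, 0 of the 124 were called higher and 2 lower, and the median difference was -0.24, beside -0.05 over all genes. In Il10-/- mice 0 were called higher and 6 lower, and the median was -0.34, beside 0.04. Of all genes 5.01% were called higher and 3.10% lower in WT, and 4.25% and 4.07% in Il10-/- mice. Since 16556 of all 23045 probes above background were tested, these shares and the list counts are not like for like. The list of SR-related proteins holds proteins with arginine and serine repeats outside the members taken here, Srsf12 among those listed. Its median over 24 genes was -0.52 in WT and -0.34 in Il10-/- mice, with 0 and 2 called. The list of kinases and import factors that act on SR proteins also holds Nktr and Ppig, which are neither. Of its 13 genes 1 was called lower in each genotype, with medians of -0.47 and -0.43. The hnRNP and PTB proteins, which often oppose SR proteins at exons, had medians of -0.29 and -0.45 over 27 genes, with 1 and 2 called. The U1 and U2 particles that recognise splice sites had medians of 0.02 and -0.26 over 24 genes, the tri-particle that joins them 0.06 and -0.29 over 20 genes, and the factors of nonsense-mediated decay and the exon junction -0.03 and -0.38 over 16 genes, with 0 called in these 3 lists but for 1 decay gene in Il10-/- mice. Of the 6 lists, in the order given, 13, 6, 9, 3, 5 and 3 genes were among the features tested. Only those could be called, so the low counts in the last 3 lists say little.

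Srpk3, an SR protein kinase known mainly from muscle, fell in both genotypes. Its level had a mean of 6.88 on the WT controls and 3.08 on the irradiated WT arrays (SD 0.75 and 0.85, n = 5 each), with 1 of the 5 irradiated arrays well above background, a difference of -3.80 with a limma adjusted p of 0.000474. On the Il10-/- arrays the means were 6.15 and 3.15 (SD 0.83 and 0.53, n = 5 each), a difference of -3.00 with a limma adjusted p of 0.000559. In both genotypes all 5 irradiated arrays were below all 5 controls. After 7 Gy it was not well above background on any Il10-/- array. There the irradiated arrays were set to the lowest signal well above background where they fell under it. With the scaling used and all arrays kept, the Il10-/- controls were then at least 7.88-fold higher. This bound does not hold in every alternative. The Il10-/- difference was -2.79 without replicate 4 at 0 Gy and -2.86 in the deposited table. Under normexp background correction the differences were -1.04 and -0.72, with limma adjusted p of 0.0511 and 0.77.

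Ptbp3, a PTB protein of blood cells, fell at its brightest probe, with differences of -1.84 in WT and -1.16 in Il10-/- mice and limma adjusted p of 0.00358 and 0.0061, and all 5 irradiated arrays were below all 5 controls in each. Its other probe differed by 0.08 and 0.80, so the gene has no single direction. Luc7l2, a partner of the U1 particle, fell in Il10-/- mice, with a difference of -1.17 (limma adjusted p = 0.00125), as did Srek1, an SR-related regulator, with -1.02 (limma adjusted p = 0.00398), each without overlap of the 5 and 5 arrays. In WT these 2 genes differed by -1.43 and -1.5, again without overlap, and missed the call, with limma adjusted p of 0.0259 and 0.0444. The other 2 Luc7l2 probes differed less, by -0.78 and -0.37 in Il10-/- mice and by -0.80 and -0.16 in WT. Hnrnpr, which binds nascent messages, fell in Il10-/- mice, with a difference of -0.98 (limma adjusted p = 0.00505), as did Upf3b, which ties decay to the exon junction, with -0.97 (limma adjusted p = 0.00361), all 5 irradiated arrays being below all 5 controls for each. In WT they differed by -0.67 and -0.54, with overlap and no call (limma adjusted p of 0.1 and 0.181). No interaction of genotype and dose was called for any of these 6 genes, with limma adjusted p from 0.636 to 0.846.

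These calls do not all hold when the fit is altered. Under normexp background correction all of them were lost, with Il10-/- differences of -1.53 for Luc7l2, -1.25 for Srek1, -1.40 for Ptbp3, -0.90 for Hnrnpr and -0.41 for Upf3b, which was then not among the features tested, and -1.11 for Ptbp3 in WT. Without the 2 weak arrays the WT differences of Srpk3 and Ptbp3 were -4.16 and -1.65, and both stayed called. The call of Ptbp3 in Il10-/- mice was lost without replicate 1, 2 or 5 at 0 Gy, at limma adjusted p of 0.019, 0.0185 and 0.0137, and without replicate 1, 2, 3 or 4 at 7 Gy, at 0.0162, 0.0177, 0.0105 and 0.0117. The call of Hnrnpr was lost without replicate 1, 2 or 4 at 0 Gy, at 0.0177, 0.0165 and 0.0108, and without replicate 3, 4 or 5 at 7 Gy, at 0.0114, 0.0112 and 0.0123. Leaving out replicate 2 took the call from Upf3b at 0 Gy, at 0.0124, and from Srek1 at 7 Gy, at 0.0129, while Luc7l2 and Srpk3 kept theirs. With all groups in 1 fit the calls of Luc7l2 and Srek1 were lost, at 0.0123 and 0.0653. With replicates 1 and 2 averaged those of Ptbp3 in WT and Il10-/- mice were lost, at 0.0225 and 0.0415, and those of Srek1, Hnrnpr and Upf3b, at 0.0262, 0.0306 and 0.0229. Ptbp3 also lost its call in WT with array medians and in Il10-/- mice with the slide as a block, each at 0.0196.

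**Figure D4:**
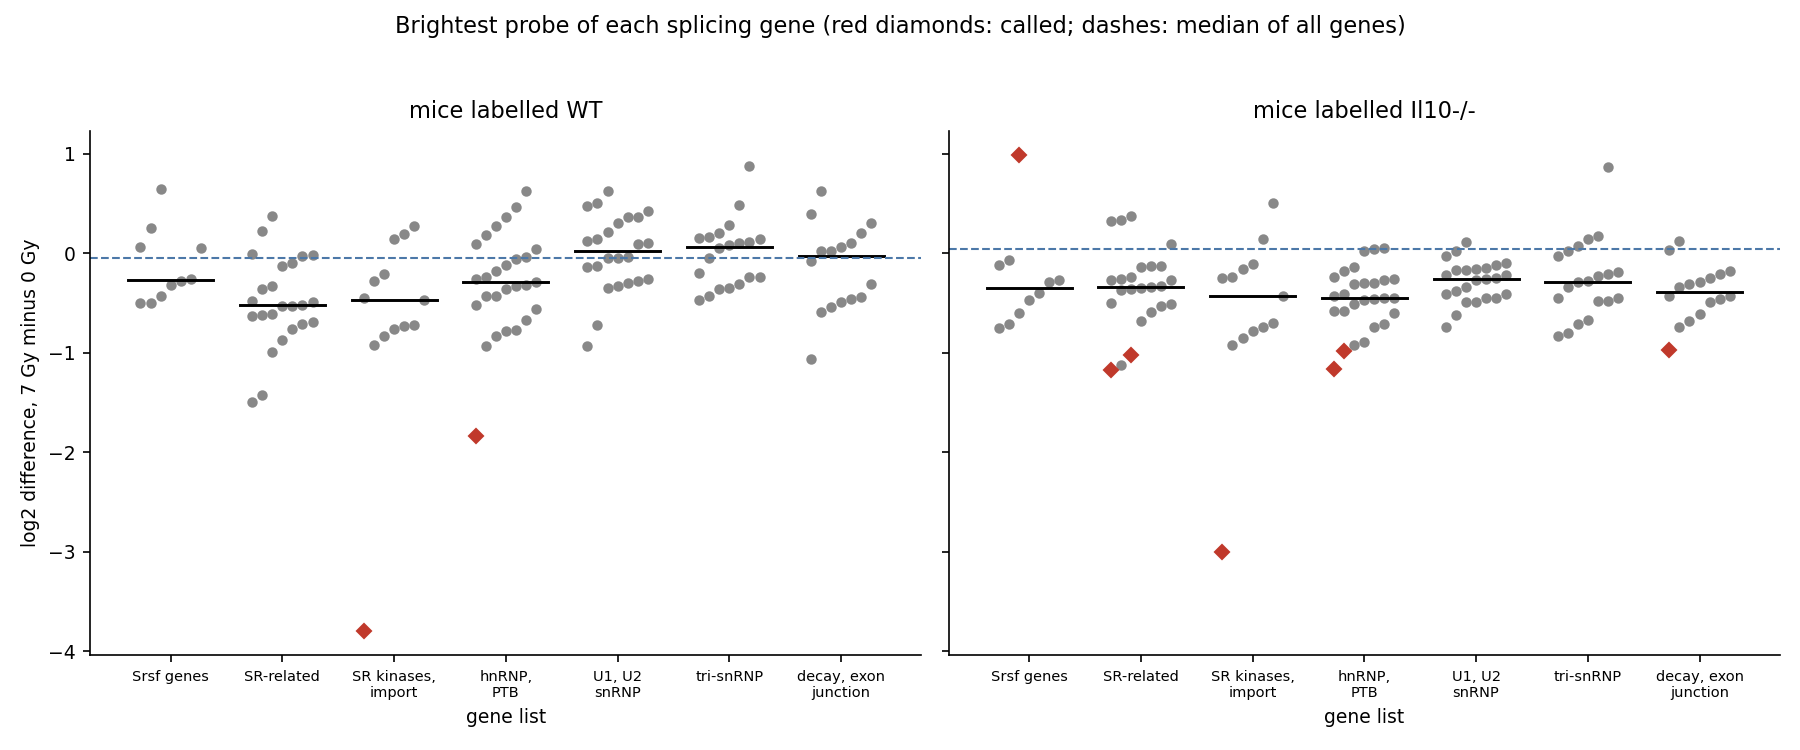
Log2 difference of 7 Gy minus 0 Gy at the brightest probe of each gene (vertical axis) for the 10 Srsf genes and 6 lists of splicing genes (horizontal axis), with a bar at the list's median, red diamonds for called genes and a dashed line at the median of all genes. Srpk3, at -3.80 and -3.00, and Ptbp3, at -1.84 and -1.16, are the called genes that both panels share, Srpk3 being well above background on 1 and 0 of 5 irradiated arrays, and the Srsf medians of -0.27 and -0.35 lie below the medians of all genes, except that the WT one turns to 0.25 under normexp.

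The promoters of Srsf1, Srsf6 and Srsf2 are shown because the late probes of the first pair were lower after 7 Gy in both genotypes while the early Srsf2 probe was higher. The windows run from 250 bases before to 50 after each gene's start, 5′ to 3′ on the gene's strand, and come from RefSeq with the build GRCm38.p6. All 10 genes matched, with 13 windows because Srsf4 and Srsf11 have more than 1 start. Capitals mark 5 motifs searched on both strands: GGGCGG, bound by Sp1-like factors, CCAAT, bound by NF-Y, TATAAA, the TATA box, CGGAAG, bound by ETS factors, and TGACGT, part of the CRE site. Where capitals run on, matches overlap or touch. Srsf1 lies at chr11:88047123-88047422 on the plus strand, Srsf6 at chr2:162931258-162931557 on the plus strand and Srsf2 at chr11:116853045-116853344 on the minus strand.
Srsf1 promoter: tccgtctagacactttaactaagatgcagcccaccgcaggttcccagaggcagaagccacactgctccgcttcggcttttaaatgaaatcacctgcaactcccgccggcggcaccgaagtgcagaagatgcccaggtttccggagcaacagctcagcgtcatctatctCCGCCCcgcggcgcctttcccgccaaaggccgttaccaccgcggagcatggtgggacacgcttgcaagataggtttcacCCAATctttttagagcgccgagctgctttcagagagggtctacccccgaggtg
Srsf6 promoter: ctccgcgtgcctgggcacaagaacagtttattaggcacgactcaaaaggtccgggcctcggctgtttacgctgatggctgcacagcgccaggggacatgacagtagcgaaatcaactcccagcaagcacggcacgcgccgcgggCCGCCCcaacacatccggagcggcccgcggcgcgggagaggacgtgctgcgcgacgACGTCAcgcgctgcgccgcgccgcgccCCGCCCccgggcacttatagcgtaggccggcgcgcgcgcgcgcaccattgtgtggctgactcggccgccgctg
Srsf2 promoter: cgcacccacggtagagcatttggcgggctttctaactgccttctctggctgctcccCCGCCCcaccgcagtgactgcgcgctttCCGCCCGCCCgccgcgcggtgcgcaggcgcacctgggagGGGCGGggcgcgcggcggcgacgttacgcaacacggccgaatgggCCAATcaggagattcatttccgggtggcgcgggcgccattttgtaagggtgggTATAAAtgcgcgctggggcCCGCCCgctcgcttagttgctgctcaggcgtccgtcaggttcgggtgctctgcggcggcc

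The Srsf2 window held 7 matches, 5 of GGGCGG, 1 of CCAAT and 1 of TATAAA. The Srsf6 window held 2 of GGGCGG and 1 of TGACGT, and the Srsf1 window 1 of GGGCGG and 1 of CCAAT. Over the members' 13 windows GGGCGG was found in 12, beside 35.7% of all 32851 windows, and CCAAT in 4, beside 37.4%. TATAAA was found in 2, Srsf2 and Srsf3, beside 13.6% of all windows, CGGAAG in 7, beside 16.9%, and TGACGT in 3, beside 7.51%. Some Srsf4 windows overlap, so the same match is counted more than once. By gene, GGGCGG was found in 9 of 10 members and CGGAAG in 5 of 10. The members' windows had a median of 69% G and C bases, and all windows 52.7%. A match is a run of letters and no sign that a factor binds there.

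Marker messages of blood cell types moved with dose beside the family. They are levels of RNA and no count of cells. All 8 B-cell markers were lower after 7 Gy in both genotypes, with a mean difference of -2.89 in WT and -3.00 in Il10-/- mice, and their mean level per array was 8.38 to 9.31 on the WT controls and 5.66 to 6.23 on the irradiated WT arrays. T-cell markers differed by -1.05 in WT, 8 of 8 lower, and by -0.59 in Il10-/- mice, 7 of 8 lower, and erythroid markers by -2.11 and -2.16, 5 of 6 lower in each. Platelet markers differed by 1.28 and 1.38, 5 of 5 higher, and neutrophil markers by -0.34 and -0.63. At 0 Gy the mean difference of the neutrophil markers between mice labelled Il10-/- and WT was 1.56, 5 of 6 higher. The part of these cell types in the lower Srsf1 and Srsf6 probes or the higher Srsf2 probe was not tested.

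Liver and heart muscle markers, which blood should not hold at such levels, varied by many doublings between arrays. The mean of 10 liver genes was 15.82, 15.84, 13.12, 7.03 and 9.99 on the irradiated WT arrays and 4.82 to 6.17 on the WT controls. The mean of 8 heart genes was 12.39, 12.41, 9.14, 3.92 and 4.02 on the irradiated WT arrays and 3.23 to 6.49 on the controls. The Il10-/- controls were at liver means of 6.58, 6.47, 12.76, 13.84 and 6.28 and heart means of 3.07, 2.93, 3.13, 3.40 and 7.57, so that some unirradiated arrays held these messages too. The irradiated Il10-/- arrays were at 13.91, 13.97, 6.06, 12.53 and 9.15 for liver and at 12.12, 12.28, 9.29, 9.82 and 5.24 for heart, and none of them was the lowest for both. On WT replicate 4 at 7 Gy, with the least of both among the irradiated WT arrays but more liver signal than any WT control, the late probes of Srsf1 and Srsf6 were at 5.02 and 4.98 and Srsf2 at 728 was at 8.50. The part of these tissues in the Srsf1, Srsf6 and Srsf2 differences was not tested.

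**Figure D5:**
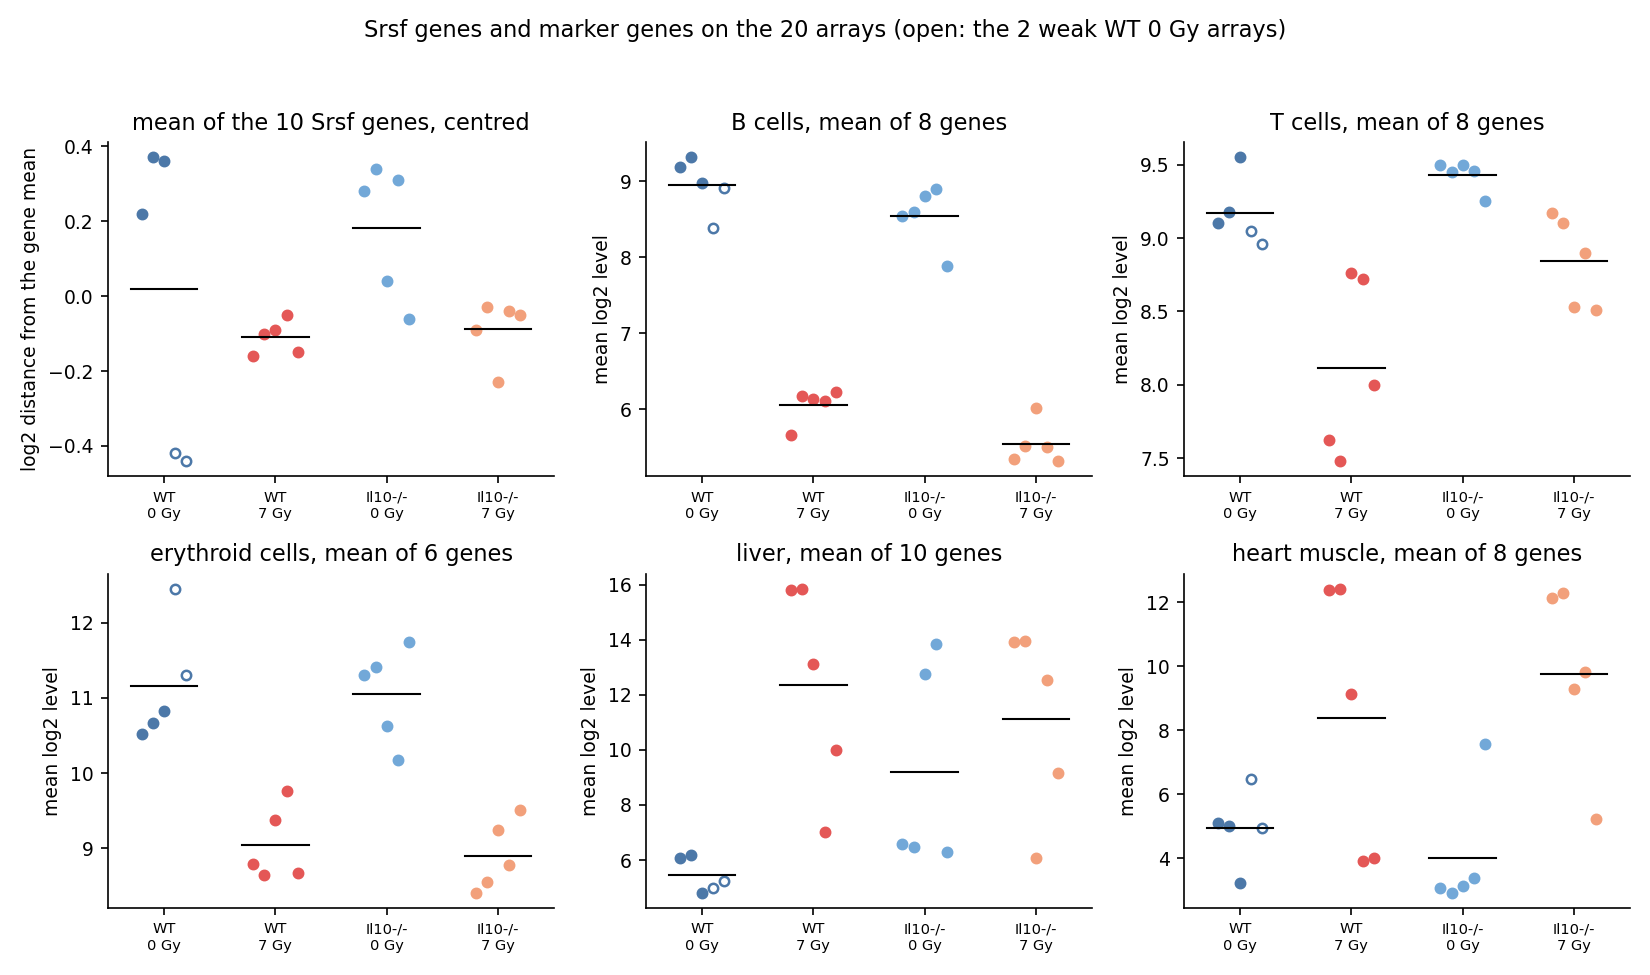
Mean of the 10 Srsf genes, each centred on its own mean, and mean log2 level of marker genes of 5 tissues (vertical axes) on the 20 arrays, by group (horizontal axis), with a bar at the mean of 5 arrays and open circles for WT 0 Gy replicates 4 and 5. B-cell markers lie at 5.32 to 6.23 on the irradiated arrays and at 7.88 to 9.31 on the controls, and liver markers run from 4.82 to 15.84.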

How the data were processed

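Whole-blood RNA, listed as from 20 mice, was read on 20 Agilent 1-colour arrays, 5 per group. They lay on 5 slides that each held 1 array of every group. Per the file headers, the spot files hold intensities from Feature Extraction 12.0.2.2, while the labels give version 10.7: the raw brightness of spot and background, and a processed intensity with background subtracted, trends within the array removed and low values replaced. The marks for outliers, saturation and signal above background are 0 or 1 per spot, per the file headers. The series table, as deposited, holds log2 values that the authors made from the processed intensities, scaled by 1 constant per array and filtered, with marked spots missing.

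The processed intensities were used here, as log2, averaged over repeated spots. From each array its median log2 distance from Il10-/- 0 Gy replicate 3 over unmarked probes was subtracted. These constants differed from those of the deposited table by at most 0.0078. Control spots and spots marked as not uniform were left out. Of 39429 probes, 23045 were marked on fewer than 25% of arrays, and 16556 of these were also at least 1.5-fold from their median on at least 20% of arrays. These were compared by limma 3.58.1 (R 4.3.3; jsonlite 2.0.0 and the data.table package, version 1.17.8, read the files): 7 Gy against 0 Gy in each genotype, Il10-/- against WT at 0 Gy, and the interaction. A feature was called at p below 0.001 and a false discovery rate under 10%. A gene is given by its brightest probe above background. Gene names come from RefSeq accessions where the array files give 1 and otherwise from their gene names. The steps were tested on simulated data.

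The members and the lists were chosen with earlier results of these data known, so no p-value is given for members, and their calls are counts beside those over all probes. The adjusted p of a list gene is over all 16556 features, and the named list genes were picked among the called ones. Named are all members, in each splicing list and each radiation response up to 2 called genes with the largest rise and up to 2 with the largest fall, and the 5 other genes whose brightest probe had the highest Pearson correlation over the 20 arrays with the members' mean. The alternatives were scaling by array medians, by 75th percentiles or by quantiles, normexp background correction with offset 50, a stricter filter on dim probes, no 1.5-fold filter, a false discovery rate under 5% alone, all groups in 1 fit, the slide as a block, the mean of a gene's probes, the deposited table, and each array left out. Leaving out 2 weak arrays and averaging replicates 1 and 2 were chosen after seeing the data. Figures and sequence searches used Python 3.11.15, numpy 2.4.6, pandas 2.3.3 and matplotlib 3.10.9.

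The number of arrays limits the precision. Blood of 1 time, 24 h, and of 1 sex was read, and bulk RNA does not separate cell numbers from RNA per cell. Probes read 60 bases of a message, so that splice forms of the members are not resolved. No probe was moved from mm9 to a newer build. Missing values of members in the fits numbered 0.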

Additional observations from a re-analysis of the deposited data

Results flagged for a closer look

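In 104 groups of 5 arrays, over the members' probes and the named genes of the lists, the highest or lowest array was set against the other 4. In 11 of the groups its gap to the nearest other array was more than 0.71 of the whole range, so each of these is a sample far from the others. Chance flags about 1 in 20 groups.

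Among the Srsf1 probes, WT replicate 5 at 0 Gy was at a log2 level of 5.08 at position 5317, with the others at 5.96 to 6, and WT replicate 5 at 7 Gy was at 5.30 at position 5399, with the others at 5.01 to 5.07. For Srsf3, Il10-/- replicate 5 at 0 Gy was at 7.80 at position 752, with the others at 8.22 to 8.33, and Il10-/- replicate 3 at 7 Gy was at 3.44 at position 2460, with the others at 2.05 to 2.36. Srsf5 was at 8.15 on WT replicate 5 at 7 Gy, with the others at 8.63 to 8.77. Srsf7 at position 1343 was at 4.1 on WT replicate 5 at 0 Gy, with the others at 5.07 to 5.31.

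Srsf10 at position 2917 stood near background, at 0.76 on Il10-/- replicate 1 at 0 Gy, with the others at 2.12 to 2.65, but at 6.41 on Il10-/- replicate 3 at 7 Gy, with the others at 1.37 to 2.65. Srsf11 was at 8.43 on Il10-/- replicate 3 at 0 Gy, with the others at 9 to 9.17. Srpk3 was at 5.55 on WT replicate 4 at 0 Gy, with the others at 7.07 to 7.46. Upf3b was at 5.25 on WT replicate 2 at 7 Gy, with the others at 4.75 to 4.89.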

How the results depend on the processing

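The WT count of 1832 called features was 343 with normexp background correction, 4116 at a false discovery rate under 5% alone, 2815 with all groups in 1 fit and 848 with replicates 1 and 2 averaged, which leaves 4 values a group. With 1 array left out it was 1176 to 1756. The Il10-/- count of 1862 was 1 with normexp, 4177 at the 5% rate alone, 910 with replicates 1 and 2 averaged, and 1316 to 1704 with 1 array left out.

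The count of 82 between Il10-/- and WT at 0 Gy moved most often: 159 with array medians, 44 at the 75th percentile, 26 with quantile normalization, 0 with normexp, 143 with the stricter filter on dim probes, 19 at the 5% rate alone, 218 with all groups in 1 fit, 43 without the 2 weak WT arrays, 5 with replicates 1 and 2 averaged, and 14 to 91 with 1 array left out. The interaction kept 0 calls in every case. Averaging replicates 1 and 2 leaves fewer values to test, and the cause of the other shifts was not tested.

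With the slide as a block the counts were 1555 in WT, 1306 in Il10-/- mice, 34 between the genotypes at 0 Gy and 0 for the interaction. The replicate number names the slide. The correlation between arrays of a slide, after the group means were removed, was 0.07 to 0.33 between the doses in WT, above 0.1 on 4 of 5 slides, and -0.39 to 0.43 in Il10-/- mice, above 0.1 on 1 of 5. Between the genotypes it was -0.33 to 0.19 at 0 Gy, above 0.1 on 2 of 5 slides, and -0.03 to 0.69 at 7 Gy, above 0.1 on 4 of 5. Since not every slide was above 0.1 the number was not used to pair mice. With that block Srsf1 at 5399 was the 1 member probe called in WT, and 3 were called in Il10-/- mice, Srsf1 at 5317 and 5399 and Srsf6 at 3179.

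The members' median of -0.27 in WT turned to 0.25 with normexp and was -0.64 without the 2 weak arrays, and the Il10-/- median of -0.35 was -0.56 with normexp; the cause was not tested. With 1 array left out the medians were -0.42 to -0.16 in WT, -0.44 to -0.28 in Il10-/- mice and 0.07 to 0.30 between the genotypes at 0 Gy. Leaving out arrays also means fewer samples.

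Of 418 differences of single members under all settings 405 moved by less than the spread between arrays and 13 by more, 5 of which are WT differences below 0 that normexp turned above 0. Of 170 differences of named list genes under the alternatives 138 kept direction and call and 32 kept the direction without the call, 1 of them, Upf3b under normexp, because it was not tested there. Of 258 counts of called list genes 205 stayed within 1.5 times the main count and 53 did not. Dim probes limit what can be read: at least 29.9% and at most 57.8% of spots were well above background on an array.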
